A study of Caenorhabditis elegans with 12 samples.

Results

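The *col-* genes are the largest named group of cuticle collagen genes of *Caenorhabditis elegans*. Every gene of the deposited table whose WormBase name starts with col- was taken, which gave 156 of 46739 genes, all protein coding. Transcript levels had been measured by RNA-seq in whole L4 larvae, in 2 experiments of 6 libraries each. Experiment 1 held 3 libraries of *atfs-1(null)* worms, which lack the entire *atfs-1* open reading frame, and 3 libraries of wild-type N2 worms. Experiment 2 held 3 libraries of *atfs-1(et18)* worms and 3 more libraries of wild-type N2 worms. The et18 allele is an amino acid substitution in the mitochondrial targeting sequence of ATFS-1, the transcription factor of the mitochondrial unfolded protein response (UPRmt), and keeps that response on without added stress. Both mutant strains are described in the study as slow to develop, no further treatment was given, and each library pools many worms. The labels give growth at 20 °C on OP50 bacteria, whereas the methods of the study name HT115 bacteria. Each mutant was compared with the wild-type libraries of its own experiment, so strain and experiment cannot be told apart when the mutants are set side by side.

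Cuticle collagens are short proteins with Gly-X-Y repeats that the epidermis secretes to build the worm's exoskeleton. A new cuticle is made before each moult, and the collagen genes are switched on in waves at fixed times of each moulting cycle, so that a collagen can be abundant for a few hours and low soon after. Some collagens belong to every cuticle, some to the cuticle of the dauer larva, and a set that includes *col-19* is switched on late in L4 for the adult cuticle.

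The libraries held 24090660 to 37050803 counts on genes. atfs-1 itself had 19 to 27 counts in *atfs-1(null)* libraries, against 1104 to 1558 in the wild-type libraries of the same experiment. *hsp-6*, a mitochondrial chaperone gene used to read out the UPRmt, had 1397 to 1598 CPM (counts scaled to a common library total) in *atfs-1(et18)* worms, against 553 to 625 CPM in wild-type worms. In the mutants 1 library stood apart from the other 2. Pairwise comparisons of counts with replicate 3 of *atfs-1(null)* gave a chi-square per degree of freedom of 132 and 138, against 23.4 for replicates 1 and 2, and comparisons with replicate 2 of *atfs-1(et18)* gave 108 and 115, against 9.54 for replicates 1 and 3. The labels of experiment 1 call the replicates repeats, and those of experiment 2 only number them. The study describes its replicates as biologically independent, so p-values measure the spread between these replicates. All 6 markers of each of epidermis, body-wall muscle, intestine, neurons and germ line were detected in every group, as the label of whole worms requires. In bulk RNA of whole worms, fewer cells of a type and less RNA per cell cannot be told apart.

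The share of all counts that fell on *col-* genes was 2.67%, 2.84% and 2.61% in *atfs-1(null)* worms, against 1.34%, 1.38% and 1.32% in wild-type worms of experiment 1. The shares did not overlap, and the mean in *atfs-1(null)* worms was 2.01 times the wild-type mean (2.71 ± 0.119% and 1.35 ± 0.0314%, SD, n = 3 each). A two-sided exact permutation test of 3 against 3 libraries gave p = 0.1, the smallest it allows. In experiment 2 the share was 2.72%, 3.78% and 2.68% in *atfs-1(et18)* worms, against 2.76%, 3.12% and 2.67% in wild-type worms. These overlapped (exact permutation p = 0.8), and without replicate 2 of *atfs-1(et18)* the difference between the means was -0.15 percentage points in place of 0.21. The 10 most abundant *col-* genes of a library took between 32.1% and 44.4% of its *col-* counts.

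**Figure D1:**
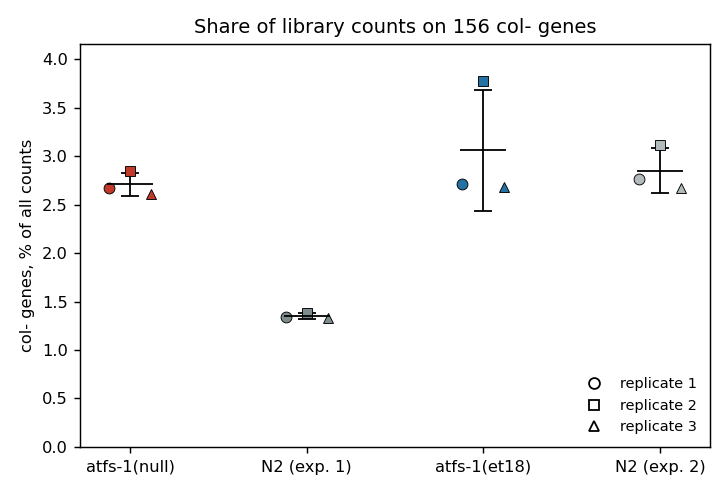
Percentage of all gene counts on the 156 *col-* genes (vertical axis, from 0) in each library, by group along the horizontal axis. Symbols mark replicates, and bars give the mean and SD of 3 libraries. The *atfs-1(null)* libraries lie between 2.61% and 2.84% and the wild-type libraries of experiment 1 between 1.32% and 1.38%, while the groups of experiment 2 overlap.

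Compared per length, as CPM per kilobase of exon (RPKM), *col-38* and *col-73* were among the 3 highest *col-* genes of every group. In *atfs-1(null)* worms the highest were *col-71* (1175 ± 541 RPKM), *col-38* (1119.7 ± 464), *col-73* (1101 ± 443) and *col-138* (1060.1 ± 496, SD, n = 3). In wild-type worms of experiment 1 they were *col-73* (762 ± 202 RPKM), *col-125* (749 ± 149.6), *col-38* (744 ± 212) and *col-166* (657 ± 186). In *atfs-1(et18)* worms *col-73* (998 ± 293 RPKM), *col-38* (976 ± 295), *col-139* (932 ± 657) and *col-125* (914 ± 192) led, against *col-73* (1531 ± 101 RPKM), *col-38* (1520.0 ± 71.5), *col-71* (1378 ± 61.6) and *col-138* (1345 ± 36.1) in wild-type worms of experiment 2. Neighbours in these orders lay within 1 SD of each other, except *col-38* and *col-71* in wild-type worms of experiment 2, which lay further apart. The ranks of some genes differed widely between groups. *col-140* ranked 5th of 156 in *atfs-1(null)* worms at 901 ± 508 RPKM, against rank 57 in wild-type worms at 42.2 ± 41.6 RPKM. *col-149* ranked 66 in *atfs-1(null)* worms at 54.8 ± 13.9 RPKM, against rank 6 in wild-type worms at 518 ± 57.7 RPKM. At the other end, *col-126* and *col-127* had no count in any library, and 8 of the 156 never had more than 3 counts in a library.

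The filter on low counts was passed by 122 of the 156 genes in the *atfs-1(null)* experiment. Of these, 56 rose, 27 fell and 39 did not pass an adjusted p of 0.05 (edgeR quasi-likelihood test, Benjamini-Hochberg over all 15620 genes tested). The strain differed from wild type over much of the transcriptome, since 68.3% of all genes tested passed, 32.9% higher and 35.4% lower. The share of *col-* genes that passed in either direction, 68.0%, was near that background, and the split was not: 45.9% rose and 22.1% fell. Log2 fold changes are given ± their standard error. The median was 0.70 over the 122 *col-* genes and -0.04 over all genes tested, and 42.6% of *col-* genes had a log2 fold change above 1, against 24.4% of all genes. The *atfs-1(null)* and wild-type libraries did not overlap for 63.1% of the *col-* genes and for 74.2% of all genes tested. The 34 genes not tested had at most 20 counts in any library of the experiment.

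The 56 genes that rose in *atfs-1(null)* worms, from the largest rise to the smallest, were *col-95*, *col-119*, *col-143*, *col-8*, *col-19*, *col-140*, *col-178*, *col-20*, *col-124*, *col-101*, *col-179*, *col-106*, *col-129*, *col-139*, *col-81*, *col-181*, *col-122*, *col-135*, *col-116*, *col-96*, *col-184*, *col-7*, *col-88*, *col-62*, *col-137*, *col-60*, *col-33*, *col-120*, *col-80*, *col-115*, *col-89*, *col-174*, *col-69*, *col-65*, *col-77*, *col-49*, *col-63*, *col-68*, *col-162*, *col-175*, *col-111*, *col-138*, *col-161*, *col-91*, *col-14*, *col-58*, *col-71*, *col-12*, *col-45*, *col-113*, *col-173*, *col-61*, *col-159*, *col-177*, *col-186* and *col-133*. Their log2 fold changes ran from 0.57 to 5.49 with a median of 2.24, and 22 of them were at least 8-fold higher. In 40 of the 56 the call held whichever single library was left out. Leaving out replicate 3 of *atfs-1(null)* ended the call of *col-45*, and *col-116* no longer passed the filter on low counts without it. The same replicate split the risers cleanly, since it was the highest of the *atfs-1(null)* libraries for 26 of them (median log2 fold change 3.79) and the lowest for the other 30 (median 1.24).

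**Figure D2:**
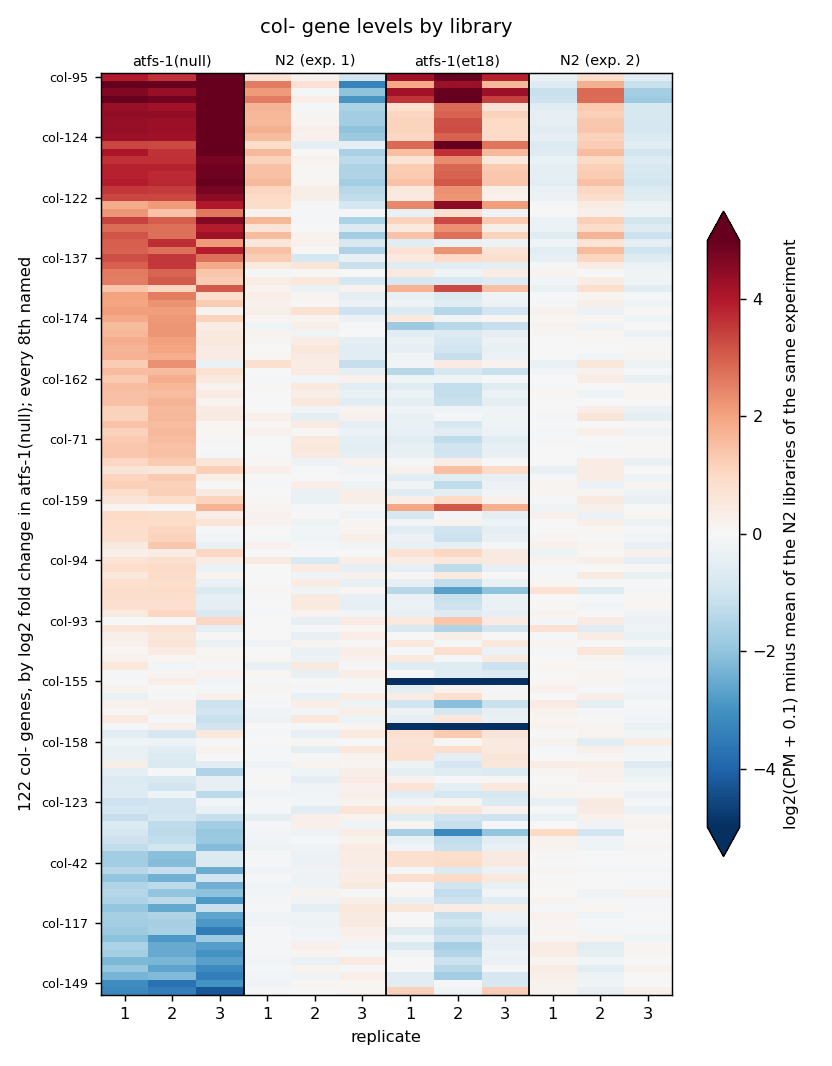
Level of the 122 *col-* genes tested in *atfs-1(null)* worms (rows, ordered by log2 fold change in that strain, every 8th named) in each of the 12 libraries (columns, numbered by replicate). Colour gives log2(CPM + 0.1) minus the mean of the wild-type libraries of the same experiment, red for higher and blue for lower, with values beyond 5 shown as 5. The top rows are deepest in replicate 3 of *atfs-1(null)* and in replicate 2 of *atfs-1(et18)*, and the dark rows under *atfs-1(et18)* are *col-154* and *col-155*.

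The genes for which replicate 3 was highest included the adult cuticle collagens. *col-19*, the collagen by which the start of the adult cuticle is commonly followed (chromosome X, 421707 to 422776, WBcel235), had 354, 317 and 964 CPM in *atfs-1(null)* worms, against 54.8, 15.8 and 5.61 CPM in wild-type worms. Every *atfs-1(null)* library lay above every wild-type library, and the wild-type libraries themselves spread over nearly 10-fold (log2 fold change 4.42 ± 0.90, adjusted p = 0.00411). Without replicate 3 of *atfs-1(null)* the log2 fold change of *col-19* was 3.71 (adjusted p = 0.00651). *col-7*, the other collagen listed here for the adult cuticle, was far less abundant, with 4.78, 3.62 and 10.46 CPM in *atfs-1(null)* worms, against 1.55, 0.523 and 0.0689 CPM in wild-type worms (log2 fold change 3.11 ± 0.83, adjusted p = 0.0131). Its order among the libraries was that of *col-19*.

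Several collagens of unassigned stage followed the same pattern at high levels. *col-140* had 569, 575 and 1399 CPM in *atfs-1(null)* worms, against 83.3, 28.2 and 7.71 CPM in wild-type worms (log2 fold change 4.41 ± 0.88, adjusted p = 0.00372). *col-20* had 454, 417 and 1245 CPM in *atfs-1(null)* worms, against 73.7, 25.6 and 5.27 CPM in wild-type worms (log2 fold change 4.34 ± 0.96, adjusted p = 0.00581). *col-124* had 664, 658 and 1595 CPM in *atfs-1(null)* worms, against 104, 40.3 and 9.74 CPM in wild-type worms (log2 fold change 4.24 ± 0.86, adjusted p = 0.00398). In all of these the wild-type level was highest in replicate 1 and lowest in replicate 3. *col-119* (4.75 ± 1.28, adjusted p = 0.0133), *col-178* (4.40 ± 0.87, adjusted p = 0.00354), *col-129* (3.79 ± 0.75, adjusted p = 0.00361) and *col-139* (3.78 ± 0.75, adjusted p = 0.00373) rose in the same way on the log2 scale. *col-8* had 94.7, 79.5 and 304 CPM in *atfs-1(null)* worms, against 16.8, 3.44 and 0.275 CPM in wild-type worms (log2 fold change 4.53 ± 1.18, adjusted p = 0.0118), and *col-143* had 47.9, 40.1 and 168 CPM in *atfs-1(null)* worms, against 8.502, 1.72 and 0.379 CPM in wild-type worms (log2 fold change 4.57 ± 1.07, adjusted p = 0.00728). The largest fitted rise was that of *col-95*, which was nearly silent in wild-type worms (96, 76 and 358 counts in *atfs-1(null)* worms, against 7, 3 and 0 counts in wild-type worms). Summed over libraries and corrected for depth, its level was 46.0 times that in wild-type worms (95% counting interval 24.8 to 96.4, counting error only). *col-116*, at 19, 10 and 27 counts in *atfs-1(null)* worms, against 2, 1 and 1 counts in wild-type worms, had a ratio of 12.1 (95% counting interval 4.49 to 46.1).

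Many of these collagens varied widely between replicates. The SD of log2 CPM within a group was over 1 for 6 of 122 *col-* genes in *atfs-1(null)* worms and 16 of 122 in wild-type worms of experiment 1. It was over 1 for 17 of 125 in *atfs-1(et18)* worms and 14 of 125 in wild-type worms of experiment 2. Among all genes tested the shares over 1 were 0.76%, 0.50%, 2.79% and 0.36%, in the same order. All 16 of experiment 1 were highest in replicate 1 of the wild type and lowest in its replicate 3, and all 16 rose in *atfs-1(null)* worms. In wild-type worms of experiment 2, all 14 were highest in replicate 2. The 12 genes over 1 in both wild-type groups were *col-8*, *col-19*, *col-20*, *col-81*, *col-119*, *col-124*, *col-129*, *col-139*, *col-140*, *col-143*, *col-178* and *col-179*. Over all *col-* genes tested, the median SD of log2 CPM was 0.65 in *atfs-1(null)* worms, against 0.33 in wild-type worms. Over all genes tested it was 0.23 in *atfs-1(null)* worms, against 0.15 in wild-type worms. In experiment 2 the median for *col-* genes was 0.355 in *atfs-1(et18)* worms, against 0.228 in wild-type worms. For all genes tested it was 0.240 and 0.131 there.

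The yolk proteins are made by the intestine of the adult, and their transcripts were highest in the same libraries as these collagens. The 6 vit genes summed to 11122, 11526 and 31272 CPM in *atfs-1(null)* worms, against 2236, 1033 and 695 CPM in wild-type worms, and all 6 rose. Transcripts of the major sperm proteins summed to 1274, 1439 and 596 CPM in *atfs-1(null)* worms, against 159, 165.6 and 68.7 CPM in wild-type worms, and 27 of the 28 msp genes tested rose. The 6 germ line markers also rose, with a median log2 fold change of 1.66. The part of stage or of germ line content in the collagen changes was not tested.

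The 30 risers for which replicate 3 of *atfs-1(null)* was lowest changed less and held several of the most abundant collagens. *col-77* had 971, 1161 and 418 CPM in *atfs-1(null)* worms, against 307, 357 and 198 CPM in wild-type worms (log2 fold change 1.56 ± 0.39, adjusted p = 0.00928), with no overlap between the groups. *col-71*, the most abundant *col-* gene of the strain, had 1632, 1905 and 674 CPM in *atfs-1(null)* worms, against 648, 912 and 465 CPM in wild-type worms (log2 fold change 1.06 ± 0.40, adjusted p = 0.0474), and here the groups overlapped. *col-138* overlapped too, with 1145, 1372 and 475 CPM in *atfs-1(null)* worms, against 428, 600.1 and 289 CPM in wild-type worms (log2 fold change 1.18 ± 0.41, adjusted p = 0.036). The calls of *col-71* and *col-138* were each kept in 2 of the 6 fits that left out a library. *col-12*, a collagen made later in each moulting cycle than the *dpy-7* group, had 102, 124 and 74.3 CPM in *atfs-1(null)* worms, against 51.1, 41.2 and 57.2 CPM in wild-type worms (log2 fold change 1.01 ± 0.21, adjusted p = 0.00451). Its tandem neighbour and close relative *col-13* had 22.8, 28.3 and 19.8 CPM in *atfs-1(null)* worms, against 19.4, 14.9 and 24.04 CPM in wild-type worms and did not pass (log2 fold change 0.28 ± 0.22, adjusted p = 0.286). Reads shared by such close relatives could have been assigned to either.

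*col-88*, *col-60* and *col-120* were among the larger rises of these 30 genes. *col-120*, a collagen linked to long life in insulin-signalling mutants, had 186, 270.3 and 77.7 CPM in *atfs-1(null)* worms, against 40.8, 45.5 and 17.4 CPM in wild-type worms (log2 fold change 2.37 ± 0.52, adjusted p = 0.00565). *col-88* had 203, 323 and 110.2 CPM in *atfs-1(null)* worms, against 37.3, 29.6 and 14.6 CPM in wild-type worms (log2 fold change 2.97 ± 0.48, adjusted p = 0.00155). *col-60* had 199, 293 and 93.2 CPM in *atfs-1(null)* worms, against 35.3, 37.7 and 11.6 CPM in wild-type worms (log2 fold change 2.79 ± 0.55, adjusted p = 0.0037). In all of them the groups did not overlap, and replicate 3 was lowest in both strains.

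The 27 genes that fell in *atfs-1(null)* worms, from the largest fall to the smallest, were *col-176*, *col-149*, *col-169*, *col-128*, *col-166*, *col-46*, *col-47*, *col-153*, *col-170*, *col-117*, *col-10*, *col-147*, *col-168*, *col-110*, *col-3*, *col-98*, *col-167*, *col-42*, *col-103*, *col-144*, *col-99*, *col-41*, *col-79*, *col-43*, *col-146*, *col-172* and *col-118*. Their log2 fold changes ran from -3.60 to -0.65 with a median of -1.79, and 24 of the 27 calls held whichever single library was left out. *col-176* (chromosome X, 10077613 to 10078738) had 18.6, 16.01 and 8.89 CPM in *atfs-1(null)* worms, against 165, 175 and 189.6 CPM in wild-type worms (log2 fold change -3.60 ± 0.27, adjusted p = 0.000191). *col-149* (chromosome V, 10291696 to 10292868) had 63.3, 40.9 and 68.1 CPM in *atfs-1(null)* worms, against 473, 571 and 583 CPM in wild-type worms (log2 fold change -3.24 ± 0.21, adjusted p = 0.000177). Both were far below the wild-type range in every library.

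On chromosome X, *col-167* to *col-171* lie next to each other between positions 6323297 and 6335221, and the 4 of them that were tested all fell in *atfs-1(null)* worms. *col-169* had 38.2, 41.3 and 17.2 CPM in *atfs-1(null)* worms, against 172, 168 and 237 CPM in wild-type worms (log2 fold change -2.58 ± 0.34, adjusted p = 0.000697), and the log2 fold changes of *col-167*, *col-168* and *col-170* were -1.59, -1.79 and -2.13. *col-166*, a short way upstream on the same chromosome and among the 4 most abundant collagens of wild-type worms, had 141, 136 and 102 CPM in *atfs-1(null)* worms, against 608, 531 and 896 CPM in wild-type worms (log2 fold change -2.43 ± 0.23, adjusted p = 0.000283). The run from *col-167* to *col-171* is the longest of 19 runs of *col-* genes that are direct neighbours, which hold 45 of the 156 genes. Of the 19 runs, 2 had every member tested and lower in *atfs-1(null)* worms (*col-46* with *col-47*, and *col-117* with *col-3*). Another 3 had every member tested and higher. The run from *col-167* to *col-171* is not among these, since *col-171* was not tested. No member was tested in the runs *col-50* and *col-51*, *col-126* and *col-127*, and *col-9* and *col-44*. In the run *col-79*, *col-39* and *col-80*, for example, the log2 fold changes were -1.17, -0.28 and 2.11.

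*col-46* had 8.77, 4.97 and 3.51 CPM in *atfs-1(null)* worms, against 27.5, 32.1 and 27.2 CPM in wild-type worms (log2 fold change -2.33 ± 0.33, adjusted p = 0.000933). *col-128* had 8.26, 4.88 and 3.31 CPM in *atfs-1(null)* worms, against 29.6, 35.4 and 28.96 CPM in wild-type worms (log2 fold change -2.51 ± 0.33, adjusted p = 0.000699), with 16.2% of its exon bases shared with another gene, and *col-47* (log2 fold change -2.24 ± 0.35, adjusted p = 0.00137) shared 28.8%. The furrow collagens *dpy-2*, *dpy-3*, *dpy-7*, *dpy-8*, *dpy-9* and *dpy-10*, which shape the rings of the cuticle and are made early in each cycle, all fell, with log2 fold changes from -2.57 to -2.19. *col-10* and *col-144*, both linked to long life in insulin-signalling mutants, also fell. *col-10* had 84.1, 94.4 and 42.9 CPM in *atfs-1(null)* worms, against 229, 234 and 362 CPM in wild-type worms (log2 fold change -1.90 ± 0.32, adjusted p = 0.00193), and *col-144* had a log2 fold change of -1.38 ± 0.33 (adjusted p = 0.00831). *col-153*, with 22.3, 12.5 and 26.4 CPM in *atfs-1(null)* worms, against 90.4, 85.6 and 105 CPM in wild-type worms, fell too (log2 fold change -2.20 ± 0.27, adjusted p = 0.000546). *col-99*, which encodes a transmembrane collagen, had 17.9, 15.5 and 10.01 CPM in *atfs-1(null)* worms, against 33.6, 35.5 and 41.2 CPM in wild-type worms (log2 fold change -1.34 ± 0.23, adjusted p = 0.00187).

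In *atfs-1(et18)* worms 125 of the 156 genes were tested. Without regard to replicate numbers 11 rose, 17 fell and 97 did not pass. Of all 15639 genes tested 16.9% passed, 9.42% higher and 7.52% lower, against 8.8% and 13.6% of the *col-* genes. In this experiment the deviations of libraries with the same replicate number were correlated, at 0.62, 0.50 and 0.10 across all genes, the last only weakly. The labels give these libraries no pairing beyond the number, so the block rests on these correlations alone. They come from the same counts that were tested, so blocked standard errors and p-values may be too small. With the number as a block 35 *col-* genes rose and 30 fell, or 28% and 24% of those tested, against 10.7% and 9.78% of all genes. Of the unblocked calls, all 11 rises and 16 of the 17 falls also passed with the block. The median log2 fold change was -0.27 over the *col-* genes and 0.07 over all genes tested, and the libraries of *atfs-1(et18)* and wild-type worms did not overlap for 48% of the *col-* genes and for 42.5% of all genes. None of the 11 rises passed in each of the 6 fits that left out a library, and of the 17 falls only *col-154* and *col-155* did.

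The 11 genes that rose in *atfs-1(et18)* worms were *col-95*, *col-135*, *col-101*, *col-142*, *col-80*, *col-160*, *col-98*, *col-42*, *col-103*, *col-39* and *col-147*. *col-142* (chromosome V, 6831163 to 6832254) had 269.6, 604 and 241 CPM in *atfs-1(et18)* worms, against 60.4, 82.8 and 69.3 CPM in wild-type worms (log2 fold change 2.39 ± 0.38, adjusted p = 0.0101), and without replicate 2 of the mutant its log2 fold change was 1.85 (adjusted p = 0.000501). Its direct neighbour *col-141* did not pass. *col-80* had 401, 1189 and 333 CPM in *atfs-1(et18)* worms, against 95.3, 215 and 82.9 CPM in wild-type worms (log2 fold change 2.29 ± 0.61, adjusted p = 0.0489). The groups did not overlap for either gene, and replicate 2 was highest in both strains. *col-95* had 84, 558 and 74 counts in *atfs-1(et18)* worms, against 2, 7 and 1 counts in wild-type worms, a ratio of 89.5 corrected for depth (95% counting interval 48.4 to 187). *col-135* had 18, 87 and 16 counts in *atfs-1(et18)* worms, against 2, 3 and 1 counts in wild-type worms, a ratio of 25.2 (95% counting interval 11.3 to 70.0). *col-101* had 27.9, 202 and 24.9 CPM in *atfs-1(et18)* worms, against 2.38, 9.07 and 2.63 CPM in wild-type worms (log2 fold change 4.19 ± 1.07, adjusted p = 0.0434).

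The remaining rises were smaller and came from abundant collagens. *col-42* had 615, 668 and 488 CPM in *atfs-1(et18)* worms, against 361, 345 and 355 CPM in wild-type worms (log2 fold change 0.74 ± 0.12, adjusted p = 0.0119). *col-98* had 577, 621 and 456 CPM in *atfs-1(et18)* worms, against 326, 319 and 314 CPM in wild-type worms (log2 fold change 0.79 ± 0.12, adjusted p = 0.00949). *col-103* had 590.1, 626 and 471 CPM in *atfs-1(et18)* worms, against 354, 334 and 336 CPM in wild-type worms (log2 fold change 0.72 ± 0.12, adjusted p = 0.011). For these genes every *atfs-1(et18)* library lay above every wild-type library, and the wild-type libraries lay close together. *col-147* (log2 fold change 0.43 ± 0.10, adjusted p = 0.0328), *col-39* (0.69 ± 0.15, adjusted p = 0.0274) and *col-160* (0.95 ± 0.18, adjusted p = 0.0187) also rose. Leaving out replicate 3 of the wild type ended all 11 of these calls. The same fit called 525 genes higher over the whole table, in place of 1473.

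The adult cuticle collagens did not pass without the block in *atfs-1(et18)* worms and did with it. *col-19* had 250.5, 1005 and 233 CPM in *atfs-1(et18)* worms, against 98.6, 346 and 81.5 CPM in wild-type worms, so that the groups overlapped (log2 fold change 1.4997 ± 0.79, adjusted p = 0.23). Within replicate numbers its level in *atfs-1(et18)* worms was 2.54, 2.901 and 2.86-fold that in wild-type worms, and the blocked log2 fold change was 1.47 ± 0.08 (adjusted p = 0.00123). *col-7* had 8.38, 21.3 and 6.79 CPM in *atfs-1(et18)* worms, against 2.02, 10.1 and 1.396 CPM in wild-type worms, with a blocked log2 fold change of 1.76 ± 0.29 (adjusted p = 0.0164). The high replicate 2 was shared by both strains. *col-20* (1.78 ± 0.08, adjusted p = 0.000963), *col-124* (1.65 ± 0.09, adjusted p = 0.00131), *col-140* (1.72 ± 0.11, adjusted p = 0.00184) and *col-119* (2.63 ± 0.09, adjusted p = 0.000572) behaved in the same way, with unblocked log2 fold changes of 1.83 ± 0.86 (adjusted p = 0.183), 1.72 ± 0.74 (adjusted p = 0.155), 1.72 ± 0.73 (adjusted p = 0.15) and 2.57 ± 1.06 (adjusted p = 0.144). All 14 *col-* genes whose SD was over 1 in wild-type worms of experiment 2 passed as higher with the block, and none did without it. These 14 were picked for a large spread within the wild type, which by itself hinders a call without the block. The sum of yolk protein transcripts had the same profile, with 5385, 21927 and 3294 CPM in *atfs-1(et18)* worms, against 1820, 7516 and 1348 CPM in wild-type worms, and 3 of the 6 genes rose with the block and none without it. Single yolk genes differed. *vit-3* had 29.2, 345 and 15.4 CPM in *atfs-1(et18)* worms, against 71.7, 244 and 45.6 CPM in wild-type worms. *vit-1* was also lower than wild type in replicates 1 and 3, and *vit-4* in replicate 3. Sperm protein transcripts summed to 196, 872 and 272 CPM in *atfs-1(et18)* worms, against 189.9, 429.9 and 372 CPM in wild-type worms. Their part in the collagen levels was not tested.

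The 17 genes that fell in *atfs-1(et18)* worms were *col-154*, *col-155*, *col-41*, *col-54*, *col-69*, *col-17*, *col-105*, *col-68*, *col-170*, *col-175*, *col-120*, *col-180*, *col-71*, *col-130*, *col-145*, *col-65* and *col-157*. The first pair was unlike the rest. *col-154* (chromosome V, 11385360 to 11386381) had 1, 2 and 2 counts in *atfs-1(et18)* worms, against 3048, 2271 and 1790 counts in wild-type worms, and *col-155* (chromosome V, 11388890 to 11389875) had 2, 2 and 4 counts in *atfs-1(et18)* worms, against 3995, 3183 and 2688 counts in wild-type worms. Corrected for depth, wild-type worms had 1137 times the level of *col-154* in *atfs-1(et18)* worms (95% counting interval 487 to 3504) and 987 times that of *col-155* (501 to 2286), counting error only. In the *atfs-1(null)* experiment neither gene passed. *col-154* had 29.2, 36.6 and 15.98 CPM in *atfs-1(null)* worms, against 30.00, 28.7 and 33.9 CPM in wild-type worms, and *col-155* had 28.5, 36.5 and 26.6 CPM in *atfs-1(null)* worms, against 27.9, 29.7 and 29.96 CPM in wild-type worms, with log2 fold changes of -0.18 ± 0.28 (adjusted p = 0.588) and 0.07 ± 0.15 (adjusted p = 0.708).

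The low counts covered a stretch of chromosome V and were not limited to collagens. F55C10.4, between the pair, had 0 counts in every *atfs-1(et18)* library, against 356, 215 and 364 counts in wild-type worms, at least 82.4-fold lower against a floor of 3 counts per library. K03B8.6, about 22.2 kb from the start of *col-154*, also had 0 counts in every *atfs-1(et18)* library, against 1773, 1256 and 1525 counts in wild-type worms, at least 403-fold lower against the same floor. From the start of *col-154* to the end of K03B8.6, at 11409540, the 19 genes of the table that lie within this stretch together had 13 counts in the 3 *atfs-1(et18)* libraries, against 22471 counts in the 3 wild-type libraries. Of the wild-type counts, 7109 fell on *col-154*, 935 on F55C10.4, 9866 on *col-155* and 4554 on K03B8.6. The other genes of the stretch had almost no counts in either strain and say nothing of a loss. No gene between *col-155* and K03B8.6 had 20 counts in any library. Genes on either side were detected. F55C10.5, which ends at 11384286, had 206, 317 and 199 counts in *atfs-1(et18)* worms, against 320, 263 and 269 counts in wild-type worms. All 13 other genes within 60 kb that had at least 20 counts in some library, F55C10.5 included, had 7 or more counts in every *atfs-1(et18)* library. Among them, K03B8.8 starts at 11409086, inside the stretch, and ends beyond it at 11411019. It had 102, 121 and 119 counts in *atfs-1(et18)* worms, against 147, 108 and 152 counts in wild-type worms. The DNA of the strain was not examined here.

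**Figure D3:**
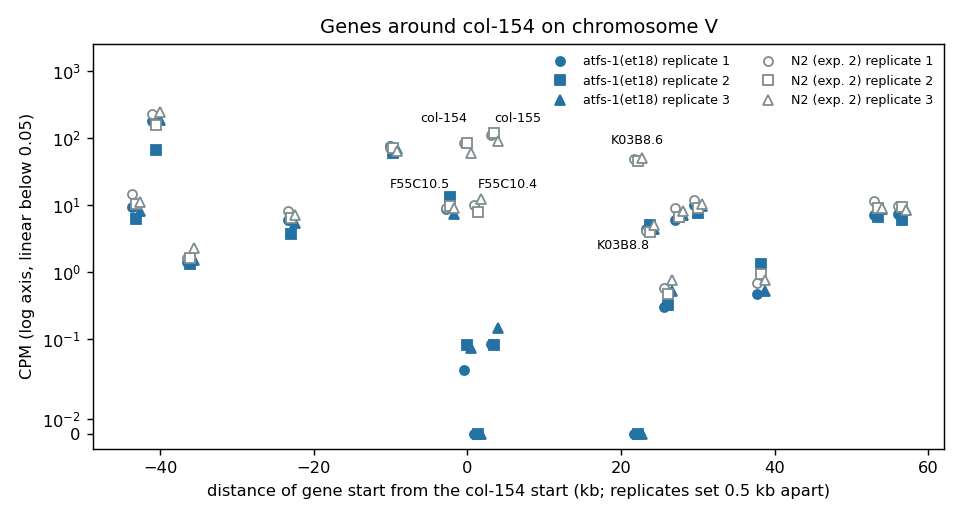
Level in CPM (vertical axis, logarithmic above 0.05) of the genes within 60 kb of *col-154* that had at least 20 counts in some library, by the distance of each gene's start from that of *col-154* (horizontal axis, kb). Filled symbols are the 3 *atfs-1(et18)* libraries and open symbols the 3 wild-type libraries of experiment 2. *col-154*, F55C10.4, *col-155* and K03B8.6 are at 0 to 0.148 CPM in *atfs-1(et18)* worms, while the other 13 genes have 7 or more counts in every library of that strain.

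Of the other falls, *col-41* and *col-54* were the largest. *col-41* had 56.9, 19.2 and 46.2 CPM in *atfs-1(et18)* worms, against 355, 92.1 and 177 CPM in wild-type worms (log2 fold change -2.35 ± 0.59, adjusted p = 0.0417). *col-54* had 10.8, 4.204 and 6.98 CPM in *atfs-1(et18)* worms, against 46.6, 18.4 and 26.3 CPM in wild-type worms (log2 fold change -2.06 ± 0.46, adjusted p = 0.0292). Neither overlapped between the groups, although the wild-type libraries differed more than 2-fold from each other. *col-17*, an abundant collagen, had 409.8, 193 and 377 CPM in *atfs-1(et18)* worms, against 1080.1, 605 and 832 CPM in wild-type worms (log2 fold change -1.36 ± 0.33, adjusted p = 0.0377). *col-69* (-1.49 ± 0.24, adjusted p = 0.0112), *col-68* (-1.10 ± 0.22, adjusted p = 0.0205) and *col-170* (-0.89 ± 0.18, adjusted p = 0.0203) also fell. The leading collagens of wild-type worms were lower in each *atfs-1(et18)* library, and of these *col-71* passed. It had 1131, 688 and 1145 CPM in *atfs-1(et18)* worms, against 1599.7, 1609 and 1732 CPM in wild-type worms (log2 fold change -0.74 ± 0.20, adjusted p = 0.0494). *col-38* had 1065, 589 and 1062 CPM in *atfs-1(et18)* worms, against 1356, 1392 and 1484 CPM in wild-type worms and did not pass (log2 fold change -0.64 ± 0.23, adjusted p = 0.101). Blocked log2 fold changes follow for those that passed only with the block. These were *col-73* (-0.66 ± 0.15, adjusted p = 0.0373), *col-138* (-0.69 ± 0.15, adjusted p = 0.0342), *col-97* (-0.61 ± 0.12, adjusted p = 0.0277) and *col-125* (-0.52 ± 0.10, adjusted p = 0.0243). *col-77* (-0.45 ± 0.15, adjusted p = 0.0884) and *col-107* (-0.55 ± 0.21, adjusted p = 0.114) did not pass in either fit.

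Collagens with a known role made up few of these calls. *col-120* had 128, 134.9 and 143.3 CPM in *atfs-1(et18)* worms, against 208, 289 and 193 CPM in wild-type worms and fell (log2 fold change -0.76 ± 0.16, adjusted p = 0.0242). *col-10* (-0.41 ± 0.29, adjusted p = 0.366), *col-13* (0.06 ± 0.20, adjusted p = 0.861) and *col-12* (0.09 ± 0.21, adjusted p = 0.791) stayed above the threshold in *atfs-1(et18)* worms with and without the block. *col-144* and *col-99* passed as lower only with the block, at -0.53 ± 0.13 (adjusted p = 0.0485) and -0.71 ± 0.15 (adjusted p = 0.0291). The collagens listed here for the dauer cuticle, *col-2*, *col-40*, *col-85* and *col-183*, were near or at 0 in every group, with a sum of at most 1.27 CPM in any library. *col-183* had no count in any library of experiment 1. Too few reads fell on them for a test in *atfs-1(null)* worms, and *col-40* (-0.54 ± 0.50, adjusted p = 0.483) and *col-85* (0.67 ± 0.39, adjusted p = 0.269), tested in *atfs-1(et18)* worms, did not pass.

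**Figure D4:**
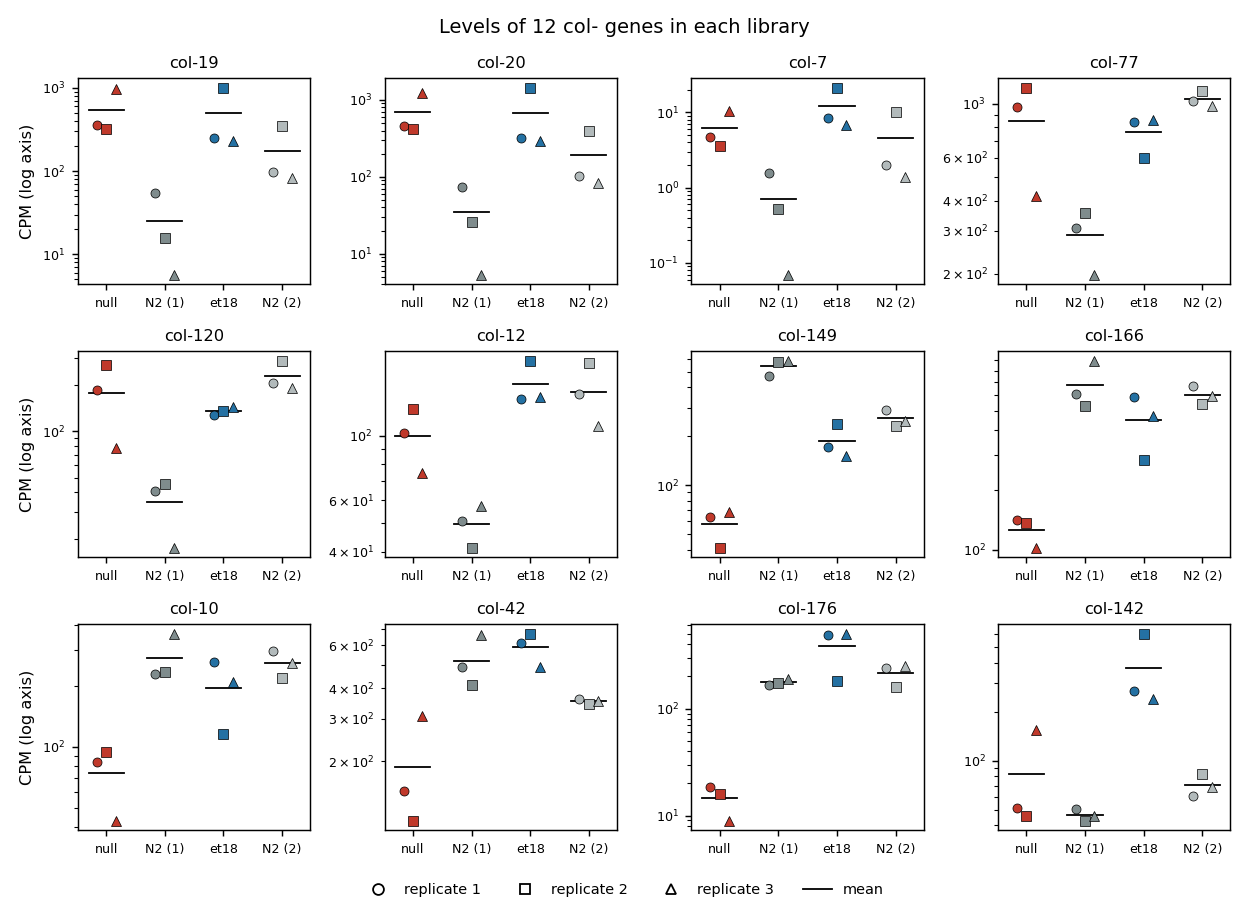
Level in CPM (vertical axes, logarithmic, scaled for each panel) of 12 *col-* genes in each library, with *atfs-1(null)* (null) beside the wild type of experiment 1 (N2 (1)) and *atfs-1(et18)* (et18) beside the wild type of experiment 2 (N2 (2)). Symbols mark replicates and lines the mean of 3. *col-19*, *col-20* and *col-7* are highest in replicate 3 of *atfs-1(null)* and replicate 2 of *atfs-1(et18)*, and in *atfs-1(null)* worms *col-42* and *col-176* lie below the wild type.

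Of the 121 genes tested in both strains, 4 rose in both (*col-80*, *col-95*, *col-101* and *col-135*) and 2 fell in both (*col-41* and *col-170*). Another 6 rose in *atfs-1(null)* and fell in *atfs-1(et18)* worms (*col-65*, *col-68*, *col-69*, *col-71*, *col-120* and *col-175*), and 4 fell in *atfs-1(null)* and rose in *atfs-1(et18)* worms (*col-42*, *col-98*, *col-103* and *col-147*). These are 3.31%, 1.65%, 4.96% and 3.31% of the 121 genes. Among all genes tested in both strains the 4 combinations held 2.62% (rose in both), 3.13% (fell in both), 1.05% (rose in *atfs-1(null)* and fell in *atfs-1(et18)*) and 3.24% (the reverse). With the block in experiment 2, 24 *col-* genes rose in both strains (19.8% of the 121, against 4% of all genes) and 7 fell in both (5.79%, against 4.74%). Another 8 rose in *atfs-1(null)* and fell in *atfs-1(et18)* (6.61%, against 1.17%), and 6 did the reverse (4.96%, against 3.24%). The 24 include *col-7*, *col-8*, *col-19*, *col-20*, *col-119*, *col-124*, *col-140* and *col-143*.

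**Figure D5:**
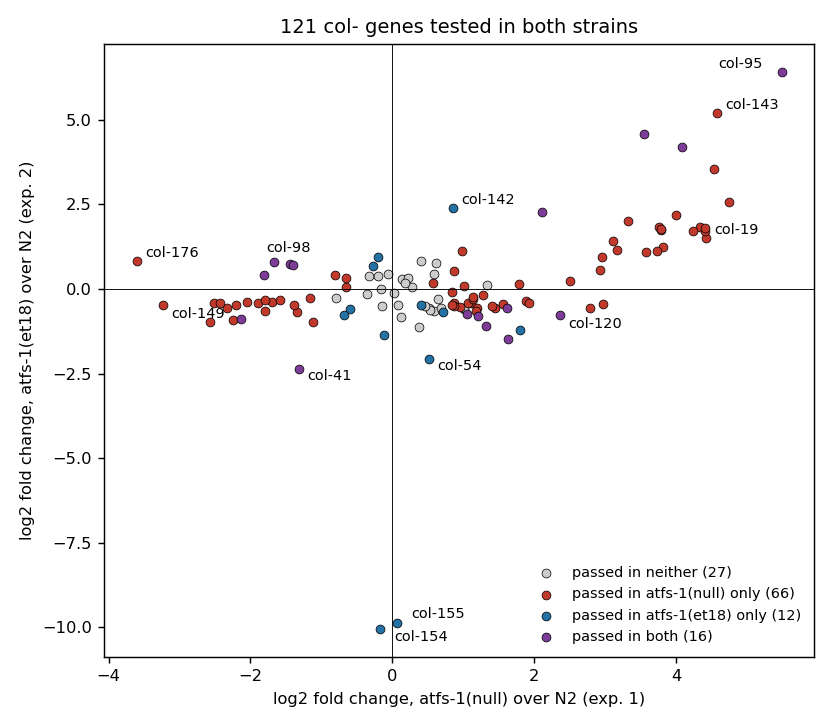
Log2 fold change of each of the 121 *col-* genes tested in both strains, *atfs-1(null)* over its wild type on the horizontal axis and *atfs-1(et18)* over its wild type on the vertical axis, coloured by which unblocked tests passed. Points at the upper right, such as *col-95* and *col-19*, are higher in both strains. *col-154* and *col-155* lie near 0 on the horizontal axis and at the bottom of the vertical axis.

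The difference between the strains was tested as the effect of et18 minus the effect of the null allele, in a fit of all 12 libraries. Of 127 *col-* genes tested, 18 had a higher effect in *atfs-1(et18)* and 44 a lower effect, or 14.2% and 34.6%. Of all 16188 genes tested 48.9% passed, 26.1% higher and 22.9% lower. With library size alone as the scaling, all genes tested gave 3637 higher and 5069 lower in place of 4220 and 3703, and the *col-* genes gave 15 and 47. Besides *col-154* (-9.90 ± 0.49, adjusted p = 5.48e-07) and *col-155* (-9.996 ± 0.29, adjusted p = 9.33e-09), the largest differences were those of *col-176* (4.42 ± 0.51, adjusted p = 0.000113), *col-88* (-3.45 ± 0.58, adjusted p = 0.000933), *col-60* (-3.39 ± 0.60, adjusted p = 0.00132) and *col-120* (-3.16 ± 0.56, adjusted p = 0.00134). *col-176* had 485, 181 and 501 CPM in *atfs-1(et18)* worms, against 241, 158 and 252 CPM in wild-type worms, so that the groups overlapped. It did not pass without the block (log2 fold change 0.84 ± 0.40, adjusted p = 0.186) and passed with it, at 0.73 ± 0.18 (adjusted p = 0.0446). *col-60* had 152, 159 and 167 CPM in *atfs-1(et18)* worms, against 214, 308 and 186 CPM in wild-type worms and did not pass there (log2 fold change -0.57 ± 0.19, adjusted p = 0.0829), nor did *col-88* (log2 fold change -0.45 ± 0.29, adjusted p = 0.316). The 4 genes that fell in *atfs-1(null)* and rose in *atfs-1(et18)* worms had differences from 2.06 to 2.40. They were picked by their opposite calls in these same libraries, so a pass in this test is no further result. For *col-19* the difference did not pass without the block (log2 fold change -3.01 ± 1.24, adjusted p = 0.0627) and passed with replicate blocks in both experiments (-3.24 ± 1.02, adjusted p = 0.0264). Same-numbered libraries of experiment 1 correlated at only -0.02, 0.52 and 0.32 across all genes, so the block has less ground there.

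The 156 genes lie on all 6 chromosomes, with 21, 24, 12, 41, 31 and 27 on chromosomes I, II, III, IV, V and X. Most are compact genes, with a median of 1009.5 exon bases and 70 of 156 with 2 exons.

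Other genes of cuticle making were taken as lists, beside medians over all genes tested of -0.04 for *atfs-1(null)* worms and 0.07 for *atfs-1(et18)* worms. Of the 14 other cuticle collagens named for body shape (the remaining dpy genes, rol, sqt, bli and lon), *bli-6* and *dpy-17* rose and *bli-1*, *bli-2* and *lon-3* fell in *atfs-1(null)* worms, and none passed in *atfs-1(et18)* worms, where 9 fell with the block. Their median log2 fold changes were -0.23 for *atfs-1(null)* worms and -0.74 for *atfs-1(et18)* worms. All 6 furrow collagens fell with the block in *atfs-1(et18)* worms and none passed without it. The cuticlin gene *cut-2* had a log2 fold change of 1.18 ± 0.36 (SE, adjusted p = 0.021) in *atfs-1(null)* worms and -1.29 ± 0.22 (adjusted p = 0.0122) in *atfs-1(et18)* worms, and *cut-4* changed in the same directions, while *cut-6* fell in *atfs-1(null)* worms, among 5 cuticlin genes tested (medians -0.10 and -0.57). Of 16 genes for collagen folding, modification and secretion, 2 rose and 7 fell in *atfs-1(null)* worms and 2, *let-268* and *bli-5*, fell in *atfs-1(et18)* worms, where 6 fell with the block (medians -0.34 and -0.27). The risers were *tmem-39* and *tmem-131*, needed for collagen export, and the fallers included *dpy-18* and *phy-2*, which encode prolyl 4-hydroxylase subunits.

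Of 7 regulators of the moulting cycle 6 fell and 1, *bed-3*, rose in *atfs-1(null)* worms, and none passed in *atfs-1(et18)* worms without the block, where *bed-3* fell with it (medians -1.28 and -0.41). Of 10 genes of moult execution 6 fell in *atfs-1(null)* worms, among them *noah-1*, an apical matrix gene (log2 fold change -2.69 ± 0.24, adjusted p = 0.000263), and 1, *nas-36*, fell in *atfs-1(et18)* worms, where 8 fell with the block (medians -1.43 and -0.72). Of 6 genes of the larva-to-adult switch, *lin-28* and *lin-41* rose in *atfs-1(null)* worms and *hbl-1*, *lin-14*, *lin-29* and *mab-10* fell. *lin-29*, whose product switches on *col-19*, had a log2 fold change of -1.33 ± 0.16 (adjusted p = 0.000495). None of the 6 passed in *atfs-1(et18)* worms without the block, and with it *lin-29* fell (-0.51 ± 0.13, adjusted p = 0.0469). The medians were -1.28 in *atfs-1(null)* worms and 0.23 in *atfs-1(et18)* worms. Of 3 basement membrane collagen genes, which belong to no cuticle, *cle-1* rose in *atfs-1(null)* worms and none passed in *atfs-1(et18)* worms, where *let-2* and *emb-9* fell with the block.

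Markers of the tissues themselves also moved. The 6 epidermis markers include the cuticle collagens *dpy-7* and *rol-6*. Of the 6, 3 fell in *atfs-1(null)* worms (*dpy-7*, *elt-3* and *che-14*). *elt-1* (log2 fold change -0.02 ± 0.21, adjusted p = 0.929), *lin-26* (0.30 ± 0.14, adjusted p = 0.0878) and *rol-6* did not pass. The mean of *dpy-7* alone was 46.5 CPM in *atfs-1(null)* worms, against 263 CPM in wild-type worms. The summed level of the 6 was 315 to 511 CPM in *atfs-1(null)* worms, against 639 to 767 CPM in wild-type worms. It was 261 to 548 CPM in *atfs-1(et18)* worms, against 503 to 762 CPM in wild-type worms, with none passing without the block and 2, *dpy-7* and *rol-6*, lower with it. All 6 intestine markers and all 6 muscle markers fell in *atfs-1(null)* worms, with median log2 fold changes of -1.48 and -0.61, and 4 of 6 neuron markers fell. In *atfs-1(et18)* worms 3 muscle and 2 neuron markers fell, and 1 intestine marker rose and 1 fell. With the block 5 muscle and 2 neuron markers fell, and 2 intestine markers rose and 1 fell. None of these markers was at 0 in any group, and their part in the collagen changes was not tested.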

How the data were processed

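Pooled whole L4 worms were sequenced by the authors as single reads of 50 bases, and the submitters' processing notes name STAR 2.5.3a, featureCounts from Subread 1.5.2, edgeR 3.10.0 and the build WBcel235. The authors deposited raw counts per gene, not normalized. The annotation release, strand setting and treatment of multiply mapped reads are not given in the sources used here, and 34 of the 156 genes overlap another gene, 15 over more than 10% of their exon bases.

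Each mutant was tested against the N2 libraries of its own experiment on the whole table with edgeR 4.0.16 (TMM scaling, filterByExpr with a minimum count of 10, quasi-likelihood test, Benjamini-Hochberg adjusted p under 0.05) in R 4.3.3, and the difference between the strains in 1 fit of all 12 libraries. The tests were checked on simulated data. CPM are TMM-scaled and RPKM use exon bases. Depth was 24090660 to 37050803 counts per library, and intervals and floors of 3 counts cover counting error only.

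Deviations of same-numbered libraries correlated above 0.1 for every number in experiment 2 (0.62, 0.50 and 0.10 across all genes), so blocked values are given there, although replicate 3 correlated better with a library of another number. The block was thus chosen from the tested counts, and its p-values may be too small. Blocked fits of the difference between strains used blocks in both experiments. Alternatives were DESeq2 1.42.0, other scalings and filters, robust dispersion, the block, 1 fit of all libraries, and each library left out. Genes named were the 8 largest rises and 8 largest falls per strain that passed, had no overlap between groups and averaged a log2 CPM of 0 or more, the 8 highest by RPKM per group, those of known role and the 6 largest differences between strains. Others with values, such as members of runs that the rule does not name, were chosen after their values were seen. The members and lists were chosen with earlier results of these data known.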

Additional observations from a re-analysis of the deposited data

Results flagged for a closer look

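The 2 alleles had different effects on 62 of the 127 *col-* genes tested, by a test of the difference itself. This is 48.8% of them, against 48.9% of all genes tested. The 6 named by the size of the difference, given as the effect of et18 minus that of the null allele on the log2 scale, were *col-155* at -9.996, *col-154* at -9.90, *col-176* at 4.42, *col-88* at -3.45, *col-60* at -3.39 and *col-120* at -3.16. The strains were collected in separate experiments, so strain and experiment cannot be told apart in these values.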

How the results depend on the processing

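In *atfs-1(null)* worms the counts stayed within 1.5 times of 56 rises and 27 falls under every alternative, and with the replicate block 61 rose and 27 fell. Same-numbered libraries share only a number in both experiments. Their correlations were -0.02, 0.52 and 0.32 across all genes in the *atfs-1(null)* experiment, where replicates 2 and 3 matched their own number best. Across the *col-* genes tested they were -0.64, 0.26 and -0.38 in that experiment. In the *atfs-1(et18)* experiment they were 0.78, 0.86 and 0.75 across the *col-* genes. Leaving out 1 library gave 70 to 100 calls (45 to 70 higher, 24 to 30 lower), and medians from 0.56 to 0.87. Over all genes these fits gave 9012 to 11650 calls, in place of 10664. In *atfs-1(et18)* worms DESeq2 called 27 genes lower, the replicate block 65 genes (35 higher, 30 lower) and the fit of all 12 libraries 16 (6 higher, 10 lower), in place of 28 (11 higher, 17 lower). Over all genes DESeq2 called 1674 lower in place of 1176. The block called 3203 genes and the fit of all 12 libraries 3074, in place of 2649. Leaving out 1 library gave 3 to 47 calls there, 0 to 16 higher and 2 to 31 lower, with 3 calls made without replicate 1 of the wild type and 47 without replicate 2 of *atfs-1(et18)*. Over all genes those 2 fits called 837 and 4523, so calls were lost and gained across the whole table. For the difference between strains, leaving out 1 library gave 50 to 77 calls. The same fits gave 5725 to 9743 over all genes, in place of 7923. The difference in share of counts was 1.29 to 1.41 percentage points in *atfs-1(null)* worms and -0.15 to 0.40 in *atfs-1(et18)* worms, negative without replicate 2 of *atfs-1(et18)*. The cause was not tested.

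No called *col-* gene changed sign under another scaling. Library size alone moved the median of all genes by 0.25 on the log2 scale in *atfs-1(null)* worms and called 6244 genes higher and 4190 lower, in place of 5134 and 5530. Changes of sign were followed only in genes named by the rule above. Their uncalled log2 fold changes that changed sign in *atfs-1(null)* worms with library size alone were 0.042 for *col-160*, 0.080 for *col-154*, 0.134 for *col-17* and 0.113 for *col-125*. With 1 library left out, the values of named genes that crossed 0 ran from -0.747 to 0.092 for *col-160*, from -0.435 to 0.077 for *col-154*, from -0.053 to 0.143 for *col-155*, from -0.302 to 0.178 for *col-17* and from -0.377 to 0.122 for *col-125* in *atfs-1(null)* worms, and from -0.095 to 0.272 for *col-13* and from -0.077 to 0.284 for *col-12* in *atfs-1(et18)* worms. Uncalled genes outside the rule crossed 0 too, such as *col-92* (-0.252 to 0.140) and *col-93* (-0.047 to 0.628) in *atfs-1(null)* worms. In *atfs-1(et18)* worms *col-150* did so (-0.267 to 0.527). Genes with few counts, such as the 30 tested in neither strain, are limited by depth.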
